A study of Capitella teleta with 10 samples.

Results

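*Capitella teleta* is a marine annelid whose brooded larva lives on yolk, forms its trunk segments early and reaches metamorphosis without feeding. The comparison described here spans the larval part of its transcriptome series, stage 7 against stage 4tt. It rests on 4 of the 10 bulk RNA-seq libraries of whole animals in the series, and the 2 libraries of stage 5 are placed between them. The groups are stage 7 larvae and stage 4tt animals, with 2 libraries each. The labels describe embryos kept in sea water with antibiotics and give no other treatment, genotype or age, and their growth protocol names another annelid, *Owenia fusiformis*. The study calls stage 4tt a larval stage, while its sample label gives the morphology as embryo and that of stages 5 and 7 as larva. The other 4 libraries are 2 of the 64-cell embryo and 2 of the gastrula. The deposited table gives a normalized read count for each of 41221 transcript models, which are referred to as features.

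Larval maturation in annelids is the period in which the ciliary bands, nervous system, muscles, gut and segmental chaetae of the animal differentiate, while transcripts of earlier patterning and cell proliferation are commonly reduced. In a whole-animal sample, fewer cells of a type and less RNA per cell cannot be told apart, so a lower value of a transcript may stand for either. The deposited identifiers are not paired with gene names, except for 1, Capitella_post1. None of them matched the 31977 genes of the RefSeq table for the assembly Capca1, so pathways and cell type markers are not described and the labelled stages could not be checked against marker genes. Totals of normalized counts were 34232727 and 32883200 in the stage 7 libraries and 40492192 and 35525986 in those of stage 4tt. The smallest value above 0 was 0.490 and 0.422 at stage 7 and 0.668 and 0.453 at stage 4tt. Since 1 read is worth a different amount in different features, these minima do not give the worth of a read in a library. Features above 0 numbered 33604 and 34251 at stage 7 and 31629 and 33211 at stage 4tt. A feature of low abundance may thus have been missed more easily in replicate 1 of stage 4tt.

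To ask how much of the transcriptome changed over the larval span of this series, stage 7 was compared with stage 4tt by limma on log2(value + 1). All 10 libraries were in the fit. The study also sampled a later larval stage for chromatin accessibility, so stage 7 is not the end of larval life. Of the 35526 features that passed the filter on low values (above 2 in at least 2 libraries), 3310 were higher at stage 7 (9.32%) and 2014 were lower (5.67%). These are called rising and falling features here. To be called, a feature needed a Benjamini-Hochberg adjusted p under 0.05 over all features tested and a log2 fold change past 1 or -1. The median log2 fold change was 2.71 among rising features, which is 6.55-fold, and -1.87 among falling features, which is 3.65-fold. Sizes taken over called features alone tend to be overstated, since only changes past the thresholds enter. Rises were thus both more numerous and larger than falls, and 650 rising features (19.6%) but 169 falling features (8.39%) had a log2 fold change above 4 in size. Over all features tested the median log2 fold change was 0.12.

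In every called feature the 2 stage 7 libraries lay on one side of both stage 4tt libraries. That separation alone was common, since both stage 7 libraries lay above both stage 4tt libraries for 33.5% of all features and below them for 25% of all features. With the fold-change threshold kept and the p left unadjusted, 5056 features were higher and 2897 lower. The number of calls depended on single libraries. Leaving out stage 7 replicate 1 left 1384 rising and 1235 falling features, leaving out stage 7 replicate 2 left 1675 and 1371, and leaving out stage 4tt replicate 1 left 1962 and 1481. In a fit of these 4 libraries alone, 2377 features rose and 1250 fell.

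**Figure D1:**
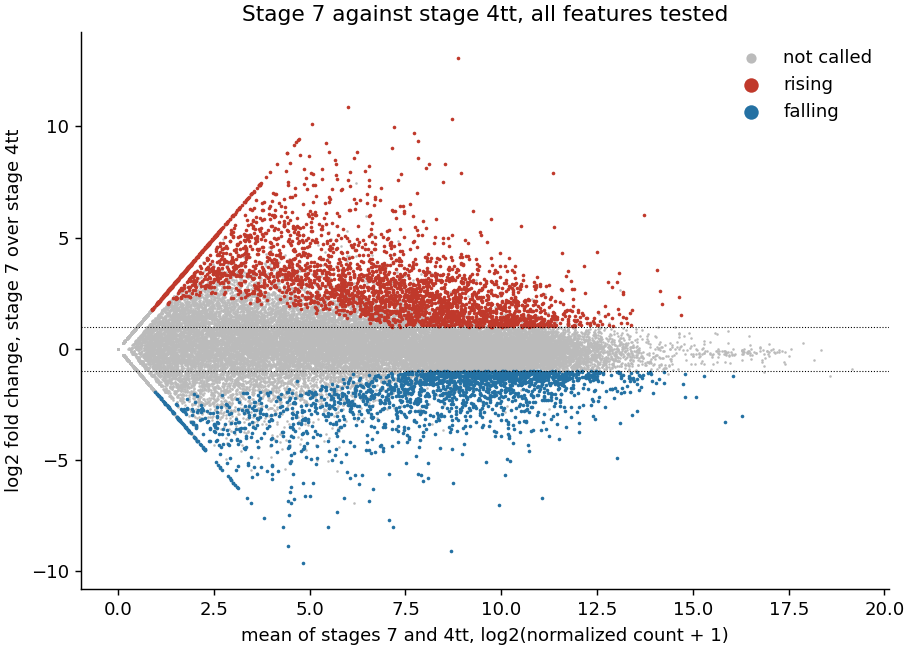
Log2 fold change of stage 7 over stage 4tt against the mean level of both stages on the log2(value + 1) scale, 1 point per feature tested. Red points are the 3310 rising and blue points the 2014 falling features, dotted lines mark a log2 fold change of 1 and -1, and the slanted edges at the left are features listed at 0 in both libraries of 1 stage.

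Rises and falls were also counted by abundance, taken as the mean over all 10 libraries. Among 10287 features with a mean of 100 to 1000 normalized counts over all 10 libraries, 13.4% rose and 8.07% fell. Among the 6987 features with a mean above 1000 the order was turned round, with 6.13% rising and 12.1% falling. Among 9947 features between 10 and 100, 10.3% rose and 2.65% fell, and below 10 the shares were 5.82% and 0.915% of 8305 features. The share that fell was thus higher in each higher class of abundance, while the share that rose was highest in the class from 100 to 1000. The smallest change that can be called also depends on abundance, and its part in these shares was not tested.

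The most abundant transcripts had smaller measured changes than features in general. Of the 100 features with the highest mean over all libraries, 0 rose by limma, 7 fell and 93 were not called, and the 7 falls are a share near the 5.67% of all features. The median size of their log2 fold change was 0.22, against 0.71 over all features tested. A size without sign includes noise. Over all features tested, the median size of the log2 difference between replicates was 0.34 at stage 7 and 0.49 at stage 4tt. The part of noise in the gap between 0.22 and 0.71 was not tested. The 100 most abundant features of stage 7 and the 100 of stage 4tt had 89 features in common. Of the 100 at stage 7, 5 were rising features and 1 was a falling feature, and of the 100 at stage 4tt, 0 were rising and 6 were falling. Over all features tested, 9.32% rose and 5.67% fell. Each of these lists was picked by the level at 1 end of the contrast, which by itself favours calls in 1 direction.

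The weight of the change was measured as the share of each library's normalized counts that the called features held. Rising features held 11.1% and 10.04% of the counts in the stage 7 libraries, against 1.91% and 2.57% in the stage 4tt libraries. Falling features held 4.28% and 4.497% at stage 7, against 12.3% and 13.9% at stage 4tt. The stages were far apart beside the spread between replicates in both cases, as the choice of these features on the same libraries requires. Stage 5, which entered the choice only through the filter and the shared estimate of spread, lay between them in both replicates, with 3.61% and 4.86% for rising features and 8.62% and 9.21% for falling features. In the gastrula, rising features held 1.75% and 1.71% and falling features 13.95% and 15.4%. A total of 199 rising features carried 0.5 of the rising counts at stage 7, and 122 falling features carried 0.5 of the falling counts at stage 4tt. With the features called without stage 7 replicate 1, the rising share at stage 7 was 7.04%.

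**Figure D2:**
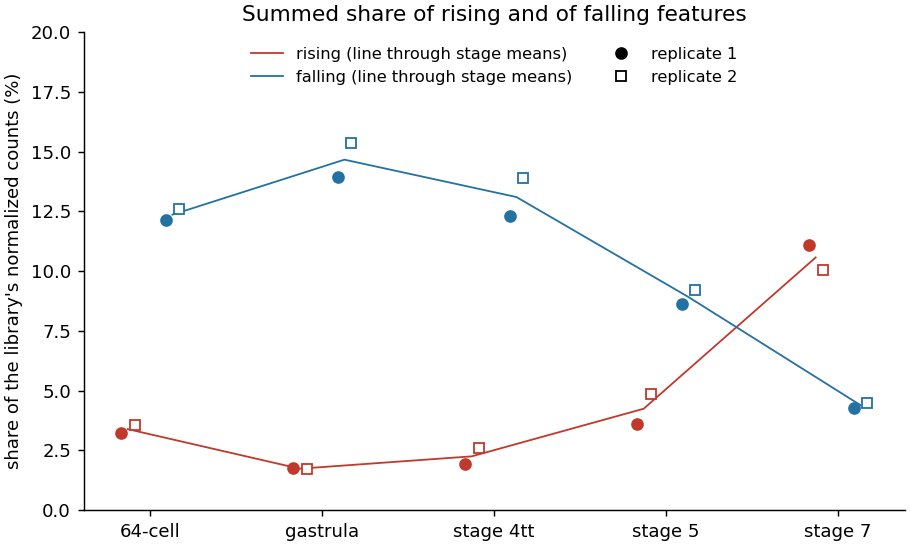
Share of each library's normalized counts held by the 3310 rising (red) and the 2014 falling (blue) features, with 1 point per library and lines through the stage means. Rising features held 1.71% to 4.86% in all libraries before stage 7 and 10.04% and 11.1% at stage 7, while falling features held at least 12.1% up to stage 4tt and 4.28% and 4.497% at stage 7.

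Some features passed between being listed at 0 and being detected. Among rising features, 353 (10.7%) were listed at 0 in both stage 4tt libraries, and their median stage 7 mean was 12.1 normalized counts. At stage 5, 144 of them were still at 0 in both libraries and 75 were above 2 in both. Only 132 of the 353 were also at 0 in all 64-cell and gastrula libraries. Most of the 353 thus had a value above 0 in some earlier library, which may stand for very few reads. Among falling features, 89 (4.42%) were listed at 0 in both stage 7 libraries, with a median stage 4tt mean of 12.1 normalized counts. Of these, 32 were already at 0 in both stage 5 libraries and 31 were still above 2 in both. Most of these features were of low abundance, and 212 of the 353 and 51 of the 89 had a mean above 10 in the stage where they were detected.

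The history of the called features was read from the 64-cell and gastrula libraries. Their values do not enter the difference between stages 7 and 4tt, but they enter the filter and the shared estimate of spread, and so the choice of features in part. Most rising features were not new to the larva. The share above 2 normalized counts in both libraries was 75.7% in 64-cell embryos, 69.4% in gastrulae, 73.7% in stage 4tt animals, 84.6% in stage 5 larvae and 99.9% in stage 7 larvae. Their median level was 31.6 normalized counts in 64-cell embryos, 20.5 in gastrulae, 39.8 in stage 4tt animals, 89.8 in stage 5 larvae and 301 in stage 7 larvae. The level was thus lowest at the gastrula, and 482 rising features (14.6%) had their highest mean of all stages in the 64-cell embryo. A group of 351 (10.6%) was at or below 2 in all 4 libraries of the 64-cell and gastrula stages.

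Falling features had their highest median levels at the gastrula and at stage 4tt. Their median level was 301 normalized counts in 64-cell embryos, 733 in gastrulae, 798 in stage 4tt animals, 494 in stage 5 larvae and 209 in stage 7 larvae. The mean was highest at the gastrula for 792 of them (39.3%), at stage 4tt for 614 (30.5%), at the 64-cell stage for 497 (24.7%) and at stage 5 for 111 (5.51%). Stage 4tt was therefore not the peak of most falling features, and their level at stage 7 was below the one from which they had started at the 64-cell stage. These stages of highest mean share the stage 4tt libraries with the choice of the features.

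How far stage 5 lay along the span was measured for each feature as its position, the log2 change from stage 4tt to stage 5 divided by that from stage 4tt to stage 7. A position of 0 is the mean of stage 4tt, 0.5 the midpoint and 1 the mean of stage 7. The median position of stage 5 was 0.362 over the rising features and 0.353 over the falling features. It was 0.316 in stage 5 replicate 1 and 0.425 in replicate 2 for rising features, and 0.325 and 0.388 for falling features. The difference between rising and falling features was therefore smaller than that between the 2 stage 5 libraries, and on this scale stage 5 stood about as far along for both. The difference between the 2 medians was not tested.

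Single features were spread widely around these medians. The quartiles of the position were 0.158 and 0.546 for rising features and 0.197 and 0.518 for falling features. Stage 5 was nearer to stage 4tt than to stage 7 for 2313 rising features (69.9%) and for 1462 falling features (72.6%). It lay outside the span on the side of stage 4tt for 294 rising (8.88%) and 164 falling features (8.14%), and past stage 7 for 73 (2.21%) and 29 (1.44%). In log2 terms, the median change of rising features was 0.86 from stage 4tt to stage 5 and 1.57 from stage 5 to stage 7. The median change of falling features was -0.61 in the first of these steps and -1.12 in the second.

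**Figure D3:**
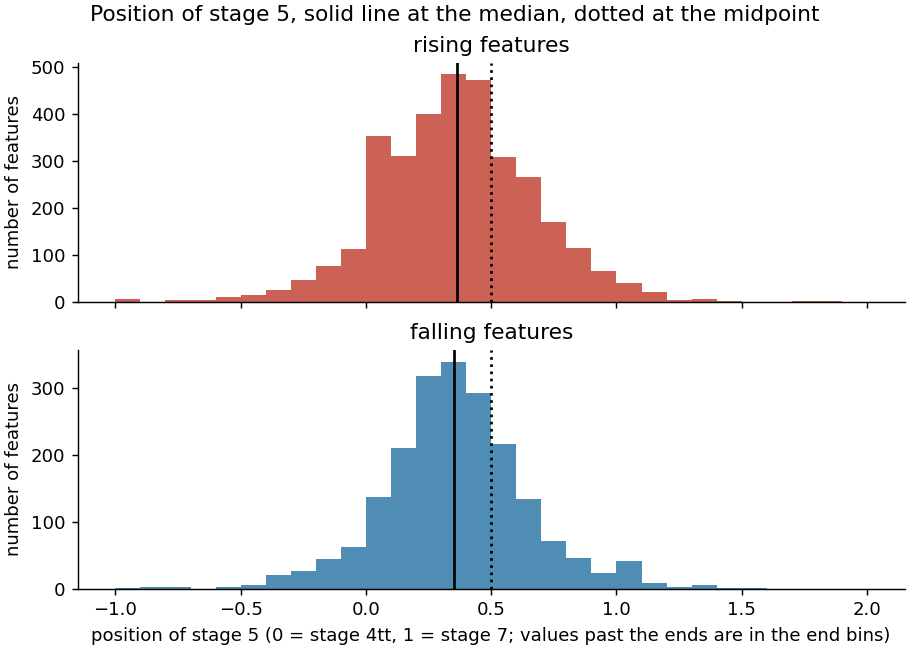
Number of features by the position of stage 5 between stage 4tt (0) and stage 7 (1), for rising features above and falling features below. Solid lines mark the medians, 0.362 and 0.353, and dotted lines the midpoint at 0.5, and most features of both kinds lie to the left of the midpoint.

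The position was checked against the noise of the end points. Over the 8 ways to take 1 library of each of the 3 stages, the median ranged from 0.269 to 0.461 for rising features and from 0.308 to 0.393 for falling features, so each of these medians was below the midpoint. When features were chosen without the replicate 1 libraries of stages 4tt and 7 and the position was then measured between those libraries, it was 0.388 for rising and 0.374 for falling features. With the replicates exchanged it was 0.356 and 0.364. The choice of features and the measurement then share no stage 4tt or stage 7 library, and the medians stayed near the first ones.

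With both stage 4tt libraries in the axis, replicates 1 and 2 had median positions of -0.044 and 0.044 for rising features. For falling features they were at 0.0029 and -0.0029. With features called without it, stage 4tt replicate 2 had a median position of 0.183 for rising and 0.162 for falling features, where replicate 1 stands at 0. In the same fit stage 5 stood at 0.429 and 0.439. With features called without it, stage 4tt replicate 1 was at 0.000 for rising and 0.127 for falling features, and stage 5 at 0.343 and 0.402. Features called with 1 stage 4tt library are chosen in part on the deviation of that library, which can push the library left out toward stage 7. The positions of up to 0.183 therefore do not measure how far apart the replicates lay. A feature listed at 0 in both stage 4tt libraries also has a position of 0 by construction. Stage 5 was farther along than the stage 4tt library left out, but the same choice can move its position in these fits. At the other end, a stage 7 library left out lay between 0.899 and 1.01.

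All 10 libraries could be placed on the same axis. For rising features the 64-cell libraries were both at 0.000 and the gastrula libraries at -0.111 and -0.141, slightly beyond stage 4tt. The 132 rising features listed at 0 in all 64-cell, gastrula and stage 4tt libraries have a position of exactly 0 there. A median of 0.000 is therefore not a measured match to stage 4tt. Rising features held 3.21% and 3.55% of the counts in the 64-cell libraries, against 1.91% and 2.57% at stage 4tt. For falling features the gastrula libraries were at -0.011 and -0.091, close to stage 4tt. The 64-cell libraries were at 0.647 and 0.622, nearer to stage 7 than either stage 5 library. By median position, the movement of falling features from the 64-cell stage to the gastrula was thus opposite in direction to their larval fall, and rising features showed no counterpart of this size. The summed share of falling features moved less, from 12.1% and 12.6% of the counts in the 64-cell libraries to 13.95% and 15.4% in the gastrula libraries. Of the falling features, 497 (24.7%) had their highest mean at the 64-cell stage.

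**Figure D4:**
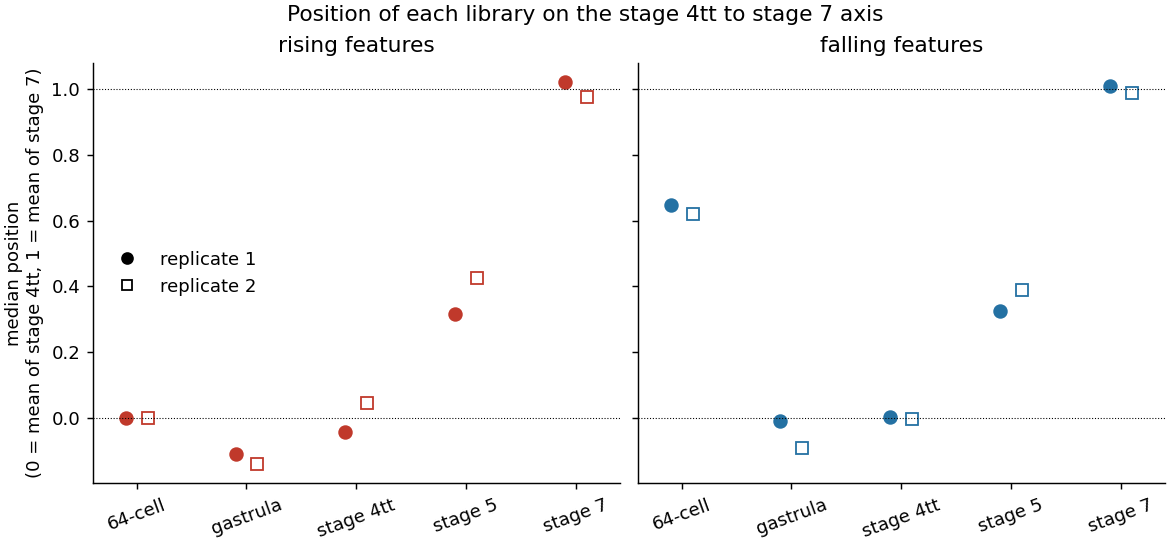
Median position of each of the 10 libraries on the axis from stage 4tt (0) to stage 7 (1), for rising features at the left and falling features at the right, with 1 point per library. Stage 5 lies at 0.316 and 0.425 for rising and at 0.325 and 0.388 for falling features, and the 64-cell libraries differ most between the panels, at 0.000 and at 0.622 and 0.647.

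To test single features, stage 5 was compared with the midpoint of stages 4tt and 7 in the same limma fit. This contrast shares the libraries of both stages with the choice of features. With equal numbers of libraries and equal spread at both stages it would be orthogonal to stage 7 minus stage 4tt. The spread was not equal, since the median size of the log2 difference between replicates was 0.49 at stage 4tt and 0.34 at stage 7. The choice may thus push the contrast to one side, by an amount that was not tested. Among rising features, 22 (0.665%) had stage 5 below the midpoint and 2 (0.0604%) above it, at an adjusted p under 0.05. Among all features tested the shares below and above were 0.0901% and 0.0366%. Among falling features, 7 (0.348%) had stage 5 above the midpoint, which is nearer to stage 4tt, and 2 (0.0993%) below it. At this replication few single features could thus be placed on one side of the midpoint.

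At an unadjusted p under 0.05 the same direction was seen in more features. Stage 5 was below the midpoint for 721 rising features (21.8%) and above it for 141 (4.26%), against 5.72% and 3.95% of all features tested. It was above the midpoint for 425 falling features (21.1%) and below it for 83 (4.12%). The features share their libraries, so these shares are not counts of independent observations. The adjusted calls changed with the libraries used. A fit restricted to the 6 libraries of stages 4tt, 5 and 7 by limma called 0 features of either kind (at an unadjusted p under 0.05, 862 rising features below and 223 above the midpoint, and 439 falling features above and 91 below it), and without stage 4tt replicate 2, falling features below the midpoint numbered 43 and those above it 8. In the fit without that library the contrast would not be orthogonal to the choice of features even with equal spread, by construction.

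The position of stage 5 differed little with the size of the change, except at its extremes. For rising features the median position lay between 0.351 and 0.375 in each of the classes of log2 fold change from 1 to 6, and it was 0.283 for the 161 features above 6. For falling features it lay between 0.325 and 0.373 in the same classes and was 0.560 for the 33 features above 6. The largest falls were thus placed earlier than the rest in both stage 5 libraries, at 0.533 and 0.536. The largest rises were at 0.264 and 0.323 in these libraries, and in replicate 1 this was close to the 0.268 of rises with a log2 fold change of 1 to 2, so their later place was clear in replicate 2 alone. These classes were not tested against each other, and they hold many features listed at 0 at 1 end.

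Abundance had a similar effect at the low end only. Features whose higher stage had a mean of at most 10 normalized counts had a median position of 0.130 among 183 rising and 0.630 among 54 falling features, which places stage 5 nearer to the stage where the feature was low. In the classes from 10 to 100, from 100 to 1000 and above 1000, the medians lay between 0.357 and 0.382 for rising and between 0.344 and 0.363 for falling features. A value of a few normalized counts stands for a few reads, so the position of such features is coarse.

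Position was then read against the earlier history. Among falling features, the 105 that were at most 2 in both 64-cell libraries and above 2 in both gastrula libraries had a median position of 0.233, with 0.203 and 0.249 in the 2 stage 5 libraries. The 1775 that were above 2 in all 64-cell and gastrula libraries had 0.361, with 0.335 and 0.396. Falling features first detected at the gastrula had thus gone through a smaller part of their log2 fall by stage 5, in both stage 5 libraries, a difference that was not tested. Among features with a stage 4tt mean above 100, the same 2 groups had 0.261 (52 features) and 0.355 (1571 features). Among rising features, the 351 at or below 2 in all 64-cell and gastrula libraries had a median of 0.286, against 0.368 for the 2096 that were above 2 in all of them. This order was turned round among features with a stage 7 mean above 100, at 0.405 (61 features) against 0.363 (1875 features).

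The scale of measurement set whether rises and falls looked alike. On the linear scale of normalized counts, stage 5 had a median position of 0.173 for rising and 0.514 for falling features. A feature at the same point of the log scale lies, by the construction of the scales, lower on the linear scale when it rises and higher when it falls. By stage 5 a typical falling feature had thus lost 0.514 of the normalized counts it would lose by stage 7, and a typical rising feature had gained 0.173 of those it would gain.

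Distances between whole transcriptomes were smaller for each part of the span than for the whole. The median size of the log2 difference between 2 libraries, over all features tested, averaged 0.80 over the 4 pairs of stage 7 and stage 4tt, with a range from 0.76 to 0.86. It averaged 0.53 between stages 5 and 4tt, from 0.45 to 0.62, and 0.63 between stages 7 and 5, from 0.54 to 0.74. Between replicates it was 0.34 at stage 7, 0.45 at stage 5 and 0.49 at stage 4tt. The distance over the whole span was thus larger than that between replicates in each pair of libraries, whereas some pairs of stages 5 and 4tt were no farther apart than the stage 4tt replicates.

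Transcript models of the same gene moved apart in a few genes. Of 588 gene identifiers that had 2 or more models tested and at least 1 called model, 107 had 2 or more called models and could show both directions. Of these 107, 12 (11.2%) had both a rising and a falling model, while 64 genes had 2 or more rising and 32 had 2 or more falling models. With the values of all models of a gene added up, 5 of these 12 genes rose, 1 fell and 6 were not called. Pseudo-alignment can divide reads among models of one gene, so opposite changes of 2 models may also come from the division of reads, which was not tested.

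Capitella_post1 is the only feature that carries a gene name. Post1 belongs to the posterior class of Hox genes, which encode transcription factors that give regions along the body axis their identity. It had 39.3 and 42.1 normalized counts in the stage 7 libraries and was listed at 0 in both stage 4tt libraries, an increase with an adjusted p of 0.000477 by limma. No fold is given against values of 0. Both stage 5 libraries were also at 0, which puts its position at 0, and stage 5 did not pass the test against the midpoint (adjusted p = 0.0978 by limma). Its detection was therefore confined to stage 7 among these 10 libraries, and with 1 stage 7 library left out it was too rarely above 2 to be tested.

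The 4 further features printed were taken by rule among called features above 0 in all 4 libraries, whose mean was 10 or more in the stage where they were higher. They are the largest fold change and the largest difference in normalized counts in each direction. CTELG00000016696.1 had the largest rise, with 49538 and 38358 normalized counts at stage 7, against 2.75 and 5.62 at stage 4tt. In the limma fit this was a log2 fold change of 13.10 with a standard error of 1.48 (adjusted p = 0.000733). At stage 5 it had 419 and 1509 normalized counts, a position of 0.489 in replicate 1 and 0.630 in replicate 2. It was thus near the middle of its rise on the log scale while it was still at a small part of its stage 7 level, and the test against the midpoint gave an adjusted p of 0.901.

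CTELG00000002039.1 gained the most normalized counts, with 119010 and 101560 at stage 7, against 1055 and 2655 at stage 4tt. In the limma fit this was a log2 fold change of 6.04 with a standard error of 0.48 (adjusted p = 0.000214). It made up 0.348% and 0.309% of all normalized counts in the stage 7 libraries. Before stage 4tt it was almost absent, with 10.8 and 17.1 normalized counts in 64-cell embryos and 0 and 1.25 in gastrulae. Its rise ran ahead of most rising features, since stage 5 already had 46105 and 42657 normalized counts, at positions of 0.792 and 0.774. The test against the midpoint did not pass (log2 difference 1.71, SE 0.41, adjusted p = 0.214 by limma). The gene has 2 models, so reads may have been divided between them.

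CTELG00000005091.1 had the largest fall of the eligible features, with 12.2 and 22.0 normalized counts at stage 7, against 10556 and 8741 at stage 4tt. In the limma fit this was a log2 fold change of -9.11 with a standard error of 0.51 (adjusted p = 8.31e-05). It was a transcript of the gastrula and stage 4tt, since the 64-cell libraries had 39.5 and 16.7 normalized counts and the gastrula libraries 6142 and 10295. At stage 5 it had 1400 and 633 normalized counts, at positions of 0.305 and 0.431, close to the median of falling features. The loss in counts was nonetheless largely complete by stage 5.

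CTELG00000001275.1 lost the most normalized counts, with 24009 and 32488 at stage 7, against 299943 and 170421 at stage 4tt. In the limma fit this was a log2 fold change of -3.02 with a standard error of 0.39 (adjusted p = 0.00127). It was abundant from the start, at 153641 and 141897 normalized counts in the 64-cell libraries and 175270 and 167859 in the gastrula libraries. The stage 5 libraries were far apart, with 204312 and 85316 normalized counts and positions of 0.0484 and 0.466, and each of them exceeded both stage 7 libraries. How far its fall had gone by stage 5 is therefore not settled by these 2 libraries.

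**Figure D5:**
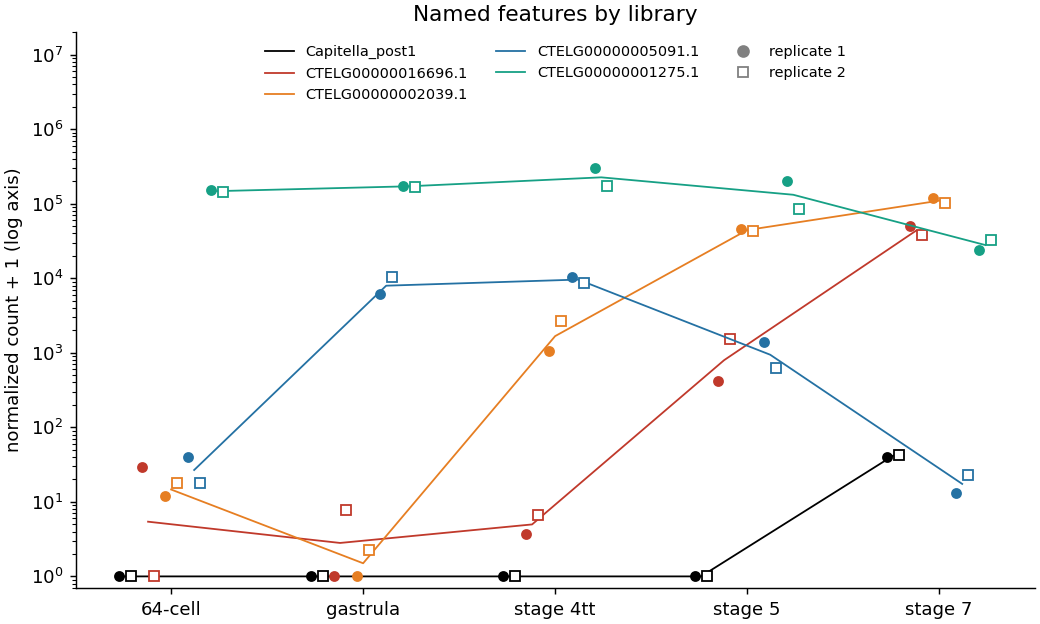
Normalized count + 1, on a log axis, of Capitella_post1 and the 4 features chosen by rule, by stage and library, with lines through the means of the log values. Capitella_post1 leaves 0 only at stage 7, CTELG00000002039.1 has 46105 and 42657 normalized counts at stage 5, and the stage 5 libraries of CTELG00000001275.1 are at 204312 and 85316.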

How the data were processed

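Per the labels, total RNA of snap-frozen animals was extracted, with 2 libraries for each of 5 stages. The authors removed adaptors with trimmomatic, pseudo-aligned reads to re-annotated gene models with kallisto (v0.46.2) and used DESeq2 (v1.30.1) for normalization. The signal deposited is thus a normalized read count per transcript model, and whole reads could not be recovered from it, since 1 read is worth a different amount in different features. Features above 2 in at least 2 libraries were fitted as log2(value + 1), with 1 coefficient per stage, by limma (v3.58.1) with a mean-variance trend in R (v4.3.3). Log2 fold changes had a standard error of 0.59 in the median. The log2(value + 1) scale understates changes of low features. Descriptions used pandas (v2.3.3) and numpy (v2.4.6) under Python (v3.11.15). The fit was also run on simulated independent values with the same spread at every stage. These data differ in both respects, so that run is no check of the calls made here. The p values measure the spread between these samples. The study states that its RNA-seq replicates were biological, while the labels name no separate broods.

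The comparison, the position measure and the rule for printed features (Capitella_post1, and the largest fold change and the largest difference in each direction) were chosen with earlier results of these data known. Replicate numbers were not taken as pairs: the correlation of replicate differences exceeded 0.1 for 2 of 10 pairs of stages. Alternatives were median-ratio scaling, other filters and pseudocounts, array weights, sums over gene identifiers, a replicate block, fewer stages in the fit, other fold-change thresholds, a linear scale, crossed replicates and leaving out each library.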

Additional observations from a re-analysis of the deposited data

How the results depend on the processing

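The number of rises stayed within 1.5 times the reported one under 19 of 22 alternatives and that of falls under 18 of 22. The printed features kept their call and direction in all 98 checks made, counted per feature and alternative. Apart from Capitella_post1, these features were picked as the largest changes in the same data, which by itself favours keeping their call. The fit with only stages 4tt and 7 was not among these checks, and the alternative with no minimum fold change reuses the main fit. For Capitella_post1, the fits without a stage 7 library were not counted either, since it was not tested there. Leaving out 1 library gave between 1384 and 3396 rises and between 1235 and 2044 falls. The lowest numbers came without stage 7 replicate 1, where 40.6% of the rising and 54.9% of the falling features were still called. Falls numbered 1250 with only stages 4tt and 7 in the fit, which has fewer degrees of freedom by construction, 3104 with no minimum fold change and 917 with a log2 fold change above 2. With 1 library left out, the features called held 7.04% to 10.9% (rising) and 3.31% to 5.09% (falling) of stage 7 counts, and the median position of stage 5 was 0.296 to 0.429 for rising and 0.315 to 0.439 for falling features. On the linear scale the positions were 0.173 and 0.514.

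Calls against the midpoint moved most, and where no cause is named the cause was not tested. With a pseudocount of 0.1, limma placed stage 5 below the midpoint for 4 and above it for 0 rising features, and above it for 2 and below it for 0 falling features (573, 131, 409 and 88 at an unadjusted p under 0.05). With a pseudocount of 5 the counts were 112 rising below, 4 rising above and 25 falling above. On gene sums 40 rising were below and 14 falling above, array weights left 3 falling above, and a log2 fold change above 2 left 1 falling below. With only stages 4tt, 5 and 7, limma called 0 in each class (862 rising below, 223 rising above, 439 falling above and 91 falling below at an unadjusted p under 0.05). Leaving out 1 library gave 1 to 32 rising below, 0 to 8 rising above, 0 to 8 falling above and 0 to 43 falling below.

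The study describes its *Owenia fusiformis* samples as paired within replicates and adds that the *Capitella teleta* stages were likewise taken in duplicate. Whether that pairing extends to *Capitella teleta* is not stated outright. The replicate numbers were not taken to mark pairs, since the labels name no shared origin and the correlation of replicate differences was above 0.1 for 2 of 10 pairs of stages. It was -0.00534 between stages 4tt and 7 but 0.221 between stages 4tt and 5, on which the position of stage 5 rests, and replicate 2 lay farther along than replicate 1 at stage 5 for both kinds of feature and at stage 4tt for rising features. With the block the positions were 0.364 and 0.353. With a replicate block there were 3381 rises and 2127 falls, and against the midpoint 14 rising below, 1 rising above and 11 falling above. With 2 libraries per stage, depth and replicate number limit what can be called for features of a few reads.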
